A study of Danio rerio with 6 samples.

Results

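The genes described here encode splicing factors and heterogeneous nuclear ribonucleoproteins (hnRNPs). They were taken from the count table by symbol. A row with an Ensembl zebrafish gene ID belonged to the set when its symbol began with srsf and a digit, hnrnp, snrp, sf3a, sf3b, u2af or prpf. This gave 78 rows of the 27314 in the table, under 76 symbols, because hnrnpa0l and srsf3a each named 2 rows. By role, 8 rows encode Sm core proteins, 2 encode U1 snRNP proteins, 2 encode the U2 snRNP proteins A' and B'', 9 encode SF3a and SF3b subunits, 3 encode U2AF subunits, 13 encode Prp-type factors, 17 encode SR proteins and 24 encode hnRNPs.

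Splicing removes introns from nuclear transcripts and is carried out by the spliceosome, which is built on each intron from small nuclear ribonucleoprotein particles (snRNPs). U1 reads the start of the intron, U2AF and U2 with its SF3a and SF3b parts read the branch site and the intron end, and the tri-snRNP with its Prp proteins brings the catalytic core. SR proteins bind exons and mostly favour their inclusion, while many hnRNPs bind the same transcripts and often oppose it, so that the balance of the regulators shapes which isoforms are made. Blood cells depend on this machinery: in humans, SF3B1, U2AF1 and SRSF2 are recurrently mutated in myeloid disease, and in lymphocytes hnRNP L family proteins regulate the splicing of the leukocyte surface protein CD45.

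The animals were Tg(coro1a:DenNTR) larvae. Their transgene uses the promoter of coro1a, a leukocyte gene, to drive Dendra2, a protein that turns from green to red under violet light, joined to NTR. Both groups carried the transgene, were labelled WT for genotype, and were sampled at 3.5 dpt and 9 dpf. One group had been given DMSO, the solvent control, and the other MTZ, an abbreviation that the labels do not spell out. In work with nitroreductase lines the letters commonly stand for metronidazole, a prodrug that the enzyme makes toxic to the cells that carry it. Cells in the kidney were marked with a 405-nm laser, the tissue of about 80 larvae was pooled, and 50 red cells were sorted for each Smart-seq2 library. Each group had 3 libraries, and the labels do not say that these came from separate pools of larvae, so the p-values measure only the spread between libraries, which may be technical. The title of the series names the CXCR4-CXCL12 axis and how HSPCs (blood stem and progenitor cells) that immigrate restore T cells, and the labels set MTZ against DMSO.

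The 6 libraries held between 14058382 and 20674280 counts. The leukocyte gene coro1a was found in all of them, at 1265 to 2528 CPM, where CPM is the usual depth-scaled count, taken here over the library size adjusted by edgeR's TMM factor. Of the T cell markers, cd4-1 and cd8a were at 0 in every library, while il7r measured 89.8 to 562 CPM and runx3 91.2 to 414 CPM. The level of lck ran from 0.0530 CPM in MTZ 1 to 234 CPM in DMSO 3. The summed level of the 13 T cell marker rows ranged from 1044 to 3851 CPM, most of it from ccr9a, at 767 to 2793 CPM. Some libraries stood apart in markers of other cells. The 16 skeletal muscle marker rows summed to 9788 CPM in DMSO 1, where no other library exceeded 26.0 CPM. Skin marker rows summed to 446 CPM in DMSO 1 and 52.4 to 344 CPM elsewhere. Of these, krt4, krt5 and krt91 measured 100, 83.1 and 152 CPM in DMSO 1 and at most 0.122 CPM elsewhere, while krt8 was found in every library. Summed neutrophil markers reached 14691 CPM in MTZ 1 against 1140 to 5204 CPM elsewhere, and 9 exocrine pancreas rows reached 484 CPM in MTZ 3. Of 10 kidney tubule marker rows 7 were at 0 in every library. Macrophage markers summed to 211 CPM in MTZ 2 and to 990.0 to 2931 CPM in the others. The 8 stem and progenitor marker rows summed to 1151, 229 and 663 CPM in DMSO and 1327, 1292 and 1080.4 CPM in MTZ. The sum had the higher mean in MTZ and was lowest in DMSO 2, but its genes did not all move together. Levels of fli1a were 137, 40.9 and 113 CPM in DMSO and 278, 657 and 367 CPM in MTZ. Those of gata2b went the other way, at 110, 24.5 and 0 CPM in DMSO and 23.7, 0.0608 and 3.46 CPM in MTZ. Levels of lmo2 were 222, 62.6 and 104 CPM in DMSO and 310, 142 and 214 CPM in MTZ. For meis1b they were 67.9, 0.0575 and 113 CPM in DMSO and 195, 175 and 73.0 CPM in MTZ. For tal1 they were 111, 0.230 and 45.5 CPM in DMSO and 61.2, 87.7 and 137 CPM in MTZ. Means of lmo2, meis1b and tal1 were higher in MTZ, with overlapping groups. The groups also overlapped in myb and in runx1, which was low at 1.43 to 19.3 CPM, and kita was found in DMSO 1 only, at 3.29 CPM. Proliferation markers summed to 5309 to 6865 CPM in the DMSO libraries and 5897 to 7805 CPM in the MTZ libraries. The part of this composition in the results below was not tested. In pooled cells, fewer cells of a type and less RNA per cell cannot be told apart.

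Splicing genes were detected broadly in these cells, and no difference between MTZ and DMSO in this set passed the edgeR test. Between 71 and 76 of the 78 rows were detected in each library, where they took 1.13% to 1.66% of the counts. The expression filter kept 74 rows among 10283 genes tested. None of the 74 was called by edgeR's quasi-likelihood test at a Benjamini-Hochberg adjusted p under 0.05, the share over all genes tested being 0%. At an unadjusted p under 0.05 there were 2, hnrnpub and snrpd2, against 3.18% of all genes tested. limma voom likewise called none. DESeq2 called 1 of the 74 rows that it gave an adjusted p, hnrnph3, which the edgeR filter had left out, against 3.82% of all genes with an adjusted p there.

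The means of most of these genes were somewhat lower in MTZ. The edgeR log2 fold change was negative for 45 of the 74 and positive for 29, which is 39.2%, where 50.9% of all genes tested were positive. The median log2 fold change was -0.22 over the 74 and 0.02 over all genes tested. In 10 of the 74, or 13.5%, every MTZ library lay below every DMSO library, a pattern held by 5.17% of all genes tested. The opposite pattern, every MTZ library above every DMSO library, was held by none of the 74 and by 5.58% of all genes tested. Among genes with a mean of 100 CPM or more, 9 of 42 splicing genes, or 21.4%, and 4.63% of all 1858 genes had the MTZ libraries below. The median log2 fold change at that level was -0.09 for the splicing genes and 0.04 for all genes. These counts are descriptions and carry no test.

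Single libraries entered this shift unequally. DMSO 3 held the highest value for 26 of the 74 genes, or 35.1%, where it did so for 17.0% of all genes tested. MTZ 3 held the lowest for 17, or 23.0%, against 9.88%. Without DMSO 3 the median log2 fold change of the splicing genes was -0.08, and that of all genes tested was 0.05. The filter was run again for that fit, which tested 76 splicing genes among 11690 genes. DMSO 1, the library with the muscle transcripts and with krt4, krt5 and krt91, was the lowest library for 22 genes, or 29.7%, against 21.1% of all genes tested. DMSO 2 was the lowest for 8 and DMSO 3 for 4 of the 74. Without DMSO 1 the number of genes with the MTZ libraries below was 19, or 25.7%, against 10.9% of all genes tested, and without MTZ 3 it was 17, or 23.0%, against 9.92%. Leaving out any library makes it easier for groups not to overlap, so a rise in these counts does not show that they depend on that library. Over all genes tested the share with the MTZ libraries above was 5.58% with no library left out. The count of 0 splicing genes with the MTZ libraries above rose at every removal. It became 6 without DMSO 3, where 12 were below, or 16.2%, against 10.2% of all genes tested. It was 5 without MTZ 3, 4 without MTZ 1, 3 without DMSO 2 and 2 without either DMSO 1 or MTZ 2, while between 9.76% and 11.2% of all genes tested had the MTZ libraries above.

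**Figure D1:**
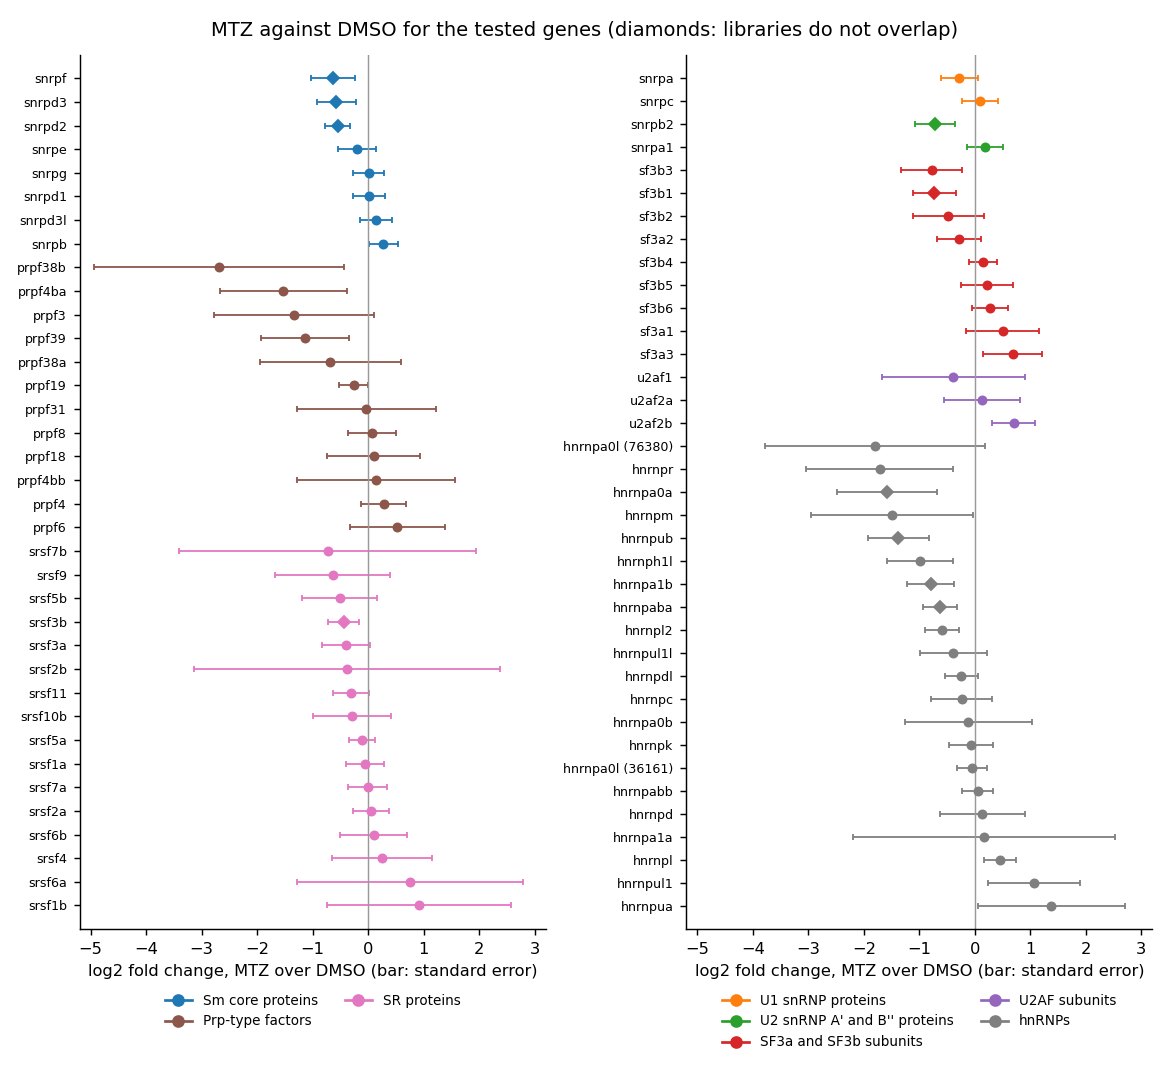
Log2 fold change of MTZ over DMSO for the tested genes shown, by role, with bars of 1 standard error from edgeR. Diamonds mark the 10 genes whose MTZ libraries all lay below all DMSO libraries, and none of the 74 passed the adjusted threshold. The digits after hnrnpa0l are the last of each gene ID.

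Summed over the members of a role, levels of the groups overlapped in every class. The 78 rows together measured 12158, 13969 and 15994 CPM in DMSO and 12608, 13494 and 11726 CPM in MTZ. The hnRNP sum was 3731, 4732 and 6002 CPM in DMSO and 4282, 4579 and 3507 CPM in MTZ. The SR protein sum was 2818 ± 190 CPM (SD, n = 3) in DMSO and 2597 ± 114 CPM in MTZ. Sums of the U2AF subunits leaned the other way, at 238 ± 52.2 CPM in DMSO and 326 ± 125 CPM in MTZ, with MTZ 3 below all DMSO libraries.

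**Figure D2:**
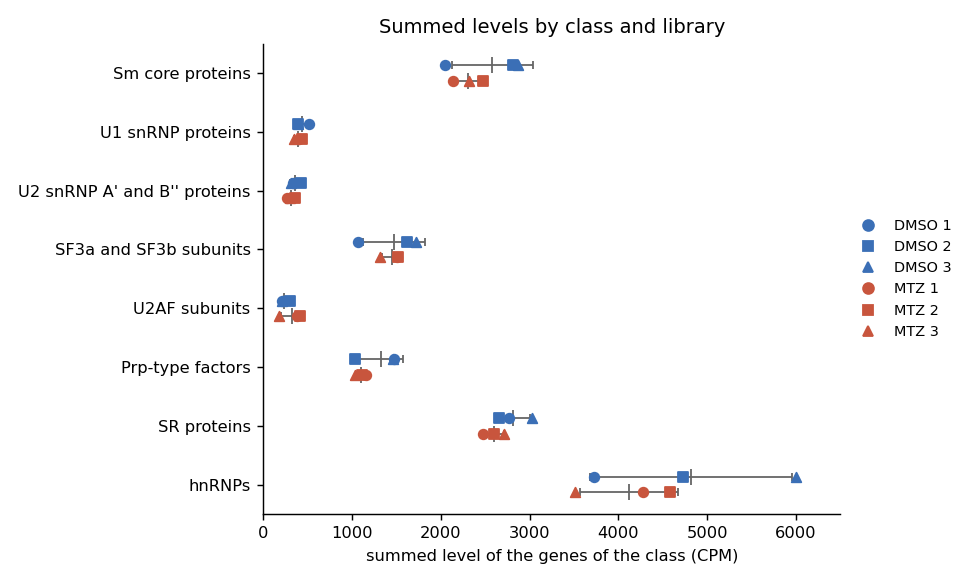
Summed CPM of the genes of each role in each library, with the mean and 1 SD of each group (n = 3) as a tick and bar. The groups overlap in all 8 roles, and the hnRNP sum runs from 3507 CPM in MTZ 3 to 6002 CPM in DMSO 3. Sums of different roles are not comparable, because counts were not divided by transcript length.

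Sm proteins form the ring that binds the small nuclear RNAs of U1, U2, U4 and U5. The 8 rows divided evenly, with 4 higher and 4 lower means in MTZ and a median log2 fold change of -0.09. The D2 gene snrpd2 (ENSDARG00000040440) measured 529, 698 and 729 CPM in DMSO and 437, 453 and 450.3 CPM in MTZ. Its 3 MTZ values lay within a narrow band below the lowest DMSO library, DMSO 1. The log2 fold change was -0.54 ± 0.23, unadjusted p = 0.0417, and the adjusted edgeR p was 0.9997. Its ring neighbour snrpd1 (ENSDARG00000011648), for protein D1, measured 197, 171 and 209 CPM in DMSO and 191, 196 and 201 CPM in MTZ. These values were level in all 6 libraries, and the log2 fold change was 0.02 ± 0.29.

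The D3 gene snrpd3 (ENSDARG00000013800) measured 171, 143 and 191 CPM in DMSO and 123, 108 and 109 CPM in MTZ. All MTZ libraries were lower than all DMSO libraries, and the log2 fold change was -0.57 ± 0.35 (edgeR adjusted p = 0.9997). Its copy snrpd3l measured 204, 198 and 250.1 CPM in DMSO and 232, 204 and 279.9 CPM in MTZ, with overlapping groups. D3 pairs with protein B in the ring, and the B gene snrpb (ENSDARG00000011125) measured 279, 371 and 446 CPM in DMSO and 401, 458 and 468 CPM in MTZ. There the 2 highest libraries were MTZ libraries and the groups overlapped, with a log2 fold change of 0.28 ± 0.26.

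The F gene snrpf measured 109, 134 and 145 CPM in DMSO and 82.2, 84.4 and 82.8 CPM in MTZ. Its MTZ libraries were nearly equal and all below the DMSO libraries, with a log2 fold change of -0.64 ± 0.39 (edgeR adjusted p = 0.9997). F is bound to E and G before the ring closes, and the genes snrpe and snrpg had log2 fold changes of -0.20 ± 0.34 and 0.01 ± 0.28 with overlapping groups. The ratio of ring partners, which does not depend on library scaling, was compared after these levels had been seen, and so has no test. The log2 ratio of snrpd2 to snrpd1 was 1.42, 2.03 and 1.80 in DMSO against 1.2, 1.21 and 1.17 in MTZ. For snrpd3 to snrpb it was -0.71, -1.37 and -1.22 in DMSO and -1.70, -2.08 and -2.11 in MTZ. The MTZ libraries lay below the DMSO libraries in both ratios and in that of snrpf to snrpg, while the ratio of snrpf to snrpe overlapped. The first gene of each ratio was one whose own MTZ libraries were all below, so lower ratios follow in part from that choice.

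The snRNP-specific proteins showed 1 member apart from the rest. U2-B'', encoded by snrpb2 (ENSDARG00000039424), binds a stem of U2 RNA together with U2-A', and its gene measured 163, 231 and 152 CPM in DMSO and 117, 106 and 108 CPM in MTZ. The MTZ values were close together and lower than any DMSO value, with a log2 fold change of -0.72 ± 0.36 (edgeR adjusted p = 0.9997). The gene of its partner, snrpa1, measured 168, 191 and 164 CPM in DMSO and 145, 248 and 198 CPM in MTZ, and here the groups overlapped, with MTZ 2 the highest library. For U1, snrpa (protein A) had a log2 fold change of -0.28 ± 0.34 and snrpc (protein C, which steadies the contact with the intron start) had 0.09 ± 0.33, both with overlapping groups.

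SF3a and SF3b make U2 able to hold the branch site. In MTZ 5 of their 9 genes had a higher and 4 a lower mean, the median log2 fold change being 0.15. The gene of the large branch site subunit, sf3b1 (ENSDARG00000056138), measured 176, 274 and 188 CPM in DMSO and 156, 146 and 82.7 CPM in MTZ. All MTZ libraries were below all DMSO libraries, with DMSO 2 the highest and MTZ 3 the lowest, and the log2 fold change was -0.73 ± 0.39 (edgeR adjusted p = 0.9997). The sf3b3 subunit gene had the lowest log2 fold change of the class, -0.78 ± 0.55, but its groups overlapped, since DMSO 1 was the lowest library.

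On the other side of 0 were sf3a3 and sf3a1, while the remaining SF3a gene, sf3a2, had a log2 fold change of -0.28 ± 0.40. The gene sf3a3 (ENSDARG00000100114) measured 83.4, 128 and 87.8 CPM in DMSO and 227, 64.0 and 187 CPM in MTZ. MTZ 1 and MTZ 3 were above all DMSO libraries and MTZ 2 was below them, so the log2 fold change of 0.68 ± 0.52 rested on 2 libraries. The gene sf3a1 (ENSDARG00000041887), whose product is another SF3a subunit, measured 35.8, 46.1 and 88.2 CPM in DMSO and 101, 93.7 and 45.9 CPM in MTZ, with a log2 fold change of 0.50 ± 0.65. The product of sf3b6 (ENSDARG00000009753) touches the branch site adenosine, and this gene measured 155, 257 and 301 CPM in DMSO and 312, 301 and 249.7 CPM in MTZ, a log2 fold change of 0.27 ± 0.32. Both genes had overlapping groups, with DMSO 1 the lowest library. The other members, sf3a2, sf3b2, sf3b4 and sf3b5, had log2 fold changes from -0.48 to 0.22 with overlapping groups.

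U2AF reads the end of the intron, its small subunit the last bases and its large subunit the pyrimidine tract. The large subunit gene u2af2b (ENSDARG00000011740) had the smallest p of the genes with a higher mean in MTZ. It measured 129, 173 and 125 CPM in DMSO and 236, 319 and 140.3 CPM in MTZ. MTZ 1 and MTZ 2 were above every DMSO library, while MTZ 3 lay between DMSO libraries. Its log2 fold change was 0.70 ± 0.39, unadjusted p = 0.106 (edgeR adjusted p = 0.9997). The second copy, u2af2a, had a log2 fold change of 0.13 ± 0.68 with overlapping groups. The small subunit gene u2af1 (ENSDARG00000015325) varied widely within both groups, at 8.56, 38.7 and 42.5 CPM in DMSO and 35.8, 22.6 and 10.2 CPM in MTZ, and its log2 fold change was -0.39 ± 1.28.

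Prp-type factors build and remodel the catalytic core. In MTZ 8 of their 13 genes had a lower and 5 a higher mean. The median log2 fold change was -0.26, and the groups overlapped in all 13. The gene prpf8 (ENSDARG00000026180), for the U5 scaffold around the active site, measured 146, 136 and 321 CPM in DMSO and 282, 187 and 165 CPM in MTZ. DMSO 3 was the highest library and DMSO 2 the lowest, and the log2 fold change was 0.07 ± 0.43. The tri-snRNP bridge gene prpf6 (ENSDARG00000091367) had a log2 fold change of 0.53 ± 0.86, with values of 13.8, 41.9 and 73.6 CPM in DMSO and 41.7, 48.9 and 95.8 CPM in MTZ. The U4/U6 gene prpf4 (ENSDARG00000067639) measured 121, 81.0 and 97.7 CPM in DMSO and 97.0, 129 and 139 CPM in MTZ and had a log2 fold change of 0.28 ± 0.41. In both genes MTZ 3 was the highest library, and the groups overlapped.

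Among the other Prp-type genes, the ubiquitin ligase gene prpf19 had the smallest standard error, with a log2 fold change of -0.26 ± 0.26. The U1-associated factor prpf39 had a log2 fold change of -1.15 ± 0.79. Also in this class were prpf38a and prpf38b, the tri-snRNP genes prpf3 and prpf31, the late-step gene prpf18 and the kinase genes prpf4ba and prpf4bb. These ranged from -2.69 to 0.14 on the log2 scale, with standard errors of 0.84 to 2.26. The lowest value, that of prpf38b, came from 19.6, 42.6 and 4.14 CPM in DMSO and 9.12, 0.0608 and 1.12 CPM in MTZ, where MTZ 2 held 1 count. DMSO 3 was below MTZ 1, so the groups overlapped.

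SR proteins carry a domain of arginine and serine repeats and help to define exons. Means of 11 of the 16 tested SR genes were lower in MTZ and those of 5 were higher, and the median log2 fold change was -0.20. The gene with the highest mean CPM of the class, not divided by length, was srsf5a (ENSDARG00000029818). It measured 792, 605 and 728 CPM in DMSO and 537, 699.5 and 739 CPM in MTZ, and its log2 fold change was -0.11 ± 0.23. The groups overlapped. The gene srsf2a (ENSDARG00000057484), whose human counterpart stays in the nucleus and is mutated in myeloid disease, measured 259, 320.2 and 453 CPM in DMSO and 445, 259.9 and 367 CPM in MTZ and had a log2 fold change of 0.05 ± 0.32. Its copy srsf2b was near the floor, at 8.56, 0.0575 and 0 CPM in DMSO and 5.25, 0 and 1.37 CPM in MTZ, and its fold change of -0.38 ± 2.76 had an error too large to give a direction.

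The only SR gene with groups that did not overlap was srsf3b (ENSDARG00000059360), which encodes a short SR protein that also serves mRNA export. This was 1 of 16 tested SR genes, or 6.25%, near the 5.17% of all genes tested that had the MTZ libraries below. It measured 221, 244 and 249 CPM in DMSO and 192, 159 and 176 CPM in MTZ. Each group was tight and the MTZ libraries were lower, with a log2 fold change of -0.44 ± 0.28 (unadjusted p = 0.152, edgeR adjusted p = 0.9997). The tested srsf3a row (ENSDARG00000025397) measured 147, 132 and 309.8 CPM in DMSO and 108, 160.1 and 177 CPM in MTZ, with DMSO 3 well above the others. The second srsf3a row (ENSDARG00000100815) was at 0 in all DMSO libraries and in MTZ 2, with 15 counts in MTZ 1 and 48 in MTZ 3, and did not pass the filter. The other members, srsf1a, srsf1b, srsf4, srsf5b, srsf6a, srsf6b, srsf7a, srsf7b, srsf9, srsf10b and srsf11, had log2 fold changes from -0.73 to 0.92, and all had overlapping groups.

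The hnRNPs are a loose class of nuclear RNA-binding proteins. Means of 15 of the 21 tested rows were lower in MTZ and those of 6 were higher. The median log2 fold change was -0.24, and 4 rows, or 19.0%, had every MTZ library below every DMSO library, against 5.17% of all genes tested. The smallest p of all splicing genes was that of hnrnpub (ENSDARG00000004735), a copy of the gene for hnRNP U, which binds RNA and chromatin. Its levels were 175, 337 and 123 CPM in DMSO and 109, 96.7 and 38.6 CPM in MTZ. DMSO 2 was the highest library, MTZ 3 the lowest, and the groups did not overlap. The log2 fold change was -1.38 ± 0.55, unadjusted p = 0.0349, and the adjusted edgeR p was 0.9997. Without DMSO 2 the log2 fold change was -0.86. The second copy, hnrnpua (ENSDARG00000015206), ran the other way, at 2.45, 22.1 and 21.0 CPM in DMSO and 56.1, 40.1 and 21.9 CPM in MTZ. DMSO 1 was the lowest and MTZ 1 the highest library, the groups overlapped, and the log2 fold change was 1.38 ± 1.32.

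The A/B group binds UAG-containing elements and often represses exons. The gene hnrnpa0a (ENSDARG00000089302) measured 35.1, 75.6 and 76.7 CPM in DMSO and 30.3, 18.3 and 14.1 CPM in MTZ. DMSO 2 and DMSO 3 were well above the others, DMSO 1 was just above the highest MTZ library, and the log2 fold change was -1.58 ± 0.90. For hnrnpa1b (ENSDARG00000036675) the values were 93.4, 163 and 146 CPM in DMSO and 71.8, 82.9 and 76.7 CPM in MTZ. The MTZ libraries were close to each other and below the DMSO libraries, with a log2 fold change of -0.80 ± 0.42. The hnRNP A/B gene hnrnpaba (ENSDARG00000007960) measured 585, 535 and 1040.4 CPM in DMSO and 483, 518 and 399 CPM in MTZ. DMSO 3 stood far above the others, MTZ 2 came close to DMSO 2 from below, and the log2 fold change was -0.63 ± 0.30, or -0.26 without DMSO 3. All 3 genes had an adjusted edgeR p of 0.9997.

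Other A/B genes did not share this pattern. The copy hnrnpabb (ENSDARG00000099865) had the highest mean CPM of all splicing genes, not divided by length, at 668, 852 and 1256 CPM in DMSO and 1001, 1114 and 753 CPM in MTZ, and a log2 fold change of 0.05 ± 0.28. The row ENSDARG00000036161, named hnrnpa0l, measured 582, 735 and 1132 CPM in DMSO and 837, 822 and 705 CPM in MTZ, with a log2 fold change of -0.05 ± 0.28. In both rows DMSO 3 was the highest library and DMSO 1 the lowest. The gene hnrnpa1a (ENSDARG00000011020) was low, at 0, 9.14 and 0.259 CPM in DMSO and 2.55, 4.2 and 3.76 CPM in MTZ, and had a log2 fold change of 0.16 ± 2.36. The second row named hnrnpa0l, ENSDARG00000076380, which a table of gene names calls gzf1, had means of 13.3 CPM in DMSO and 3.80 CPM in MTZ and overlapping groups. The gene hnrnpa3 was at 0 in all 6 libraries.

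**Figure D3:**
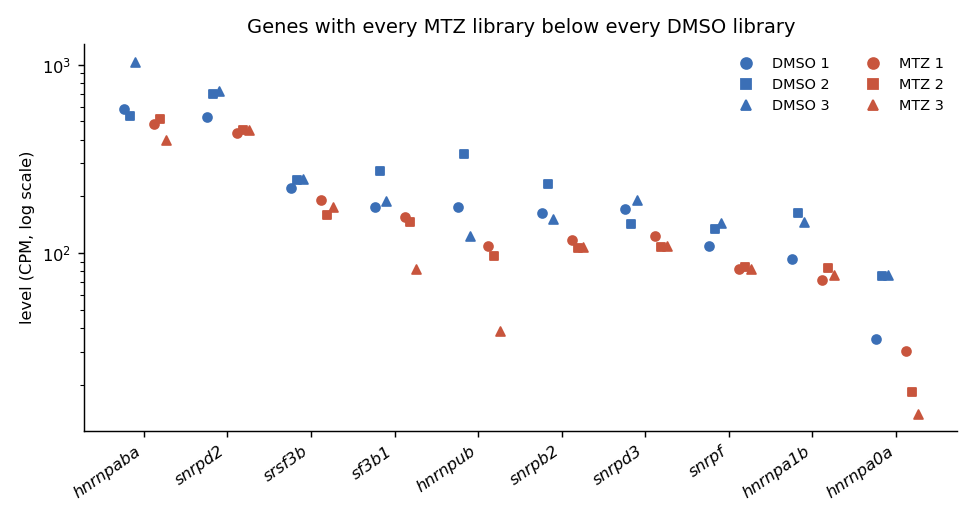
CPM of each library on a log axis for the 10 splicing genes whose MTZ libraries all lay below all DMSO libraries, ordered by mean level. In snrpd2, snrpf, snrpb2 and hnrnpa1b the MTZ points lie close together and the DMSO points are spread above them, whereas in hnrnpub and sf3b1 MTZ 3 lies well below the rest.

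hnRNP L binds CA repeats, and its 2 genes leaned in opposite directions. The gene hnrnpl (ENSDARG00000035324) measured 233, 354 and 407 CPM in DMSO and 467, 511 and 384 CPM in MTZ, with a log2 fold change of 0.45 ± 0.29. The gene hnrnpl2 (ENSDARG00000059303) measured 294, 538 and 528 CPM in DMSO and 293, 265 and 342 CPM in MTZ, with a log2 fold change of -0.59 ± 0.30. In each gene 1 library kept the groups from separating: MTZ 3 was below DMSO 3 in hnrnpl, and DMSO 1 was below MTZ 3 in hnrnpl2. Neither passed the edgeR test (adjusted p = 0.9997).

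The remaining hnRNP genes had overlapping groups. The poly(C)-binding gene hnrnpk (ENSDARG00000018914) measured 370.3, 198 and 281 CPM in DMSO and 289.8, 365 and 155 CPM in MTZ and had a log2 fold change of -0.07 ± 0.39. The hnRNP U-like gene hnrnpul1 (ENSDARG00000040564) measured 62.7, 42.4 and 10.5 CPM in DMSO and 120.2, 55.3 and 66.8 CPM in MTZ, and DMSO 3 was the lowest and MTZ 1 the highest library. Its log2 fold change was 1.07 ± 0.83. For hnrnph1l (ENSDARG00000005551), of the G-run binding hnRNP H family, the values were 71.0, 293 and 157 CPM in DMSO and 93.1, 123 and 48.2 CPM in MTZ, with DMSO 2 the highest, and the log2 fold change was -0.98 ± 0.60, or -0.37 without DMSO 2. The other rows, hnrnpa0b, hnrnpc, hnrnpd, hnrnpdl, hnrnpm, hnrnpr and hnrnpul1l, had log2 fold changes from -1.71 to 0.13.

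The hnRNP H family held the 1 splicing gene that DESeq2 called. The gene hnrnph3 (ENSDARG00000039466) had 430, 0 and 484 counts in DMSO and 1, 0 and 0 counts in MTZ. It was thus present in DMSO 1 and DMSO 3 only, apart from a single count in MTZ 1, and DMSO 2 was at 0 as were 2 MTZ libraries. The pooled rate of reads was 1109 times as high in DMSO, with an exact 95% counting interval of 199 to 43868. That interval treats each read as independent. It covers neither the number of molecules behind the reads nor the spread between libraries, so it sets no bound on the difference between the groups. DESeq2 gave an adjusted p of 0.0176. The default edgeR filter removed the gene, and without a filter its adjusted edgeR p was 0.586. Its relative hnrnph1 (ENSDARG00000040881) was as patchy, with 99 counts in DMSO 2, 1 in MTZ 2, 202 in MTZ 3 and 0 in the others.

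Zebrafish keep many of these genes as duplicate copies, and the ratio of the copies in a library does not depend on scaling. There were 16 pairs, 12 named with a and b and the others, such as hnrnpl and hnrnpl2, paired by hand after the levels had been seen. In 6 pairs the ratios of the groups did not overlap. A two-sided exact permutation test gave each of them p = 0.1, the smallest that 3 against 3 allows, and p = 0.267 after Benjamini-Hochberg adjustment over the 16 pairs. This p only restates that the groups did not overlap, and for pairs made after the levels had been seen it is no test. Among the 12 named with a and b, 3 pairs, or 25.0%, did not overlap. Over all genes tested, 9.55% of 576 pairs of symbols that differ only in a final a or b did not. Each of those pairs had at least 10 summed counts in every library, and levels were not matched. They were taken by symbol alone, so they also hold genes that are not copies, such as snrpa and snrpb. Symbols that named several rows, such as srsf3a, were left out, so the shares are not fully alike. The other pairs without overlap, those of hnrnpl, snrpd3 and hnrnpul1, were all paired by hand.

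For hnRNP U, the log2 ratio of hnrnpua to hnrnpub was -6.14, -3.93 and -2.55 in DMSO against -0.96, -1.27 and -0.82 in MTZ. Every MTZ ratio was higher than every DMSO ratio, a difference of 3.19 between the group means. Part of that size came from DMSO 1, at -6.14, where hnrnpua had 32 counts. For hnrnpl over hnrnpl2 the log2 ratio was -0.33, -0.61 and -0.37 in DMSO and 0.67, 0.94 and 0.17 in MTZ, a difference of 1.03. The ratio was thus negative in every DMSO library and positive in every MTZ library. Counts were not divided by length, so a ratio of 0 does not mark equal abundance. For hnrnpa0a over hnrnpa0b it was 0.99, 1.73 and 0.59 in DMSO and -0.55, -0.16 and -0.47 in MTZ, a difference of -1.50, with the sign again split between the groups.

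The other 3 such pairs were snrpd3 and snrpd3l, hnrnpaba and hnrnpabb, and hnrnpul1 and hnrnpul1l. Their differences in mean log2 ratio were -0.70, -0.65 and 1.73. The hnrnpul1 pair owed much of its size to DMSO 3, at -2.71, and MTZ 1, at 1.55, with the other 4 libraries between -0.52 and 0.05. Of the 10 pairs that overlapped, u2af2a and u2af2b had the smallest p (exact permutation p = 0.2), with a difference of -0.61. Reads of near-identical copies may have been divided between them by the authors' counting, and hnrnpaba, hnrnpl2, hnrnpul1l and hnrnpa0b overlap a neighbouring coding gene in the RefSeq annotation of another build, so these ratios are uncertain.

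**Figure D4:**
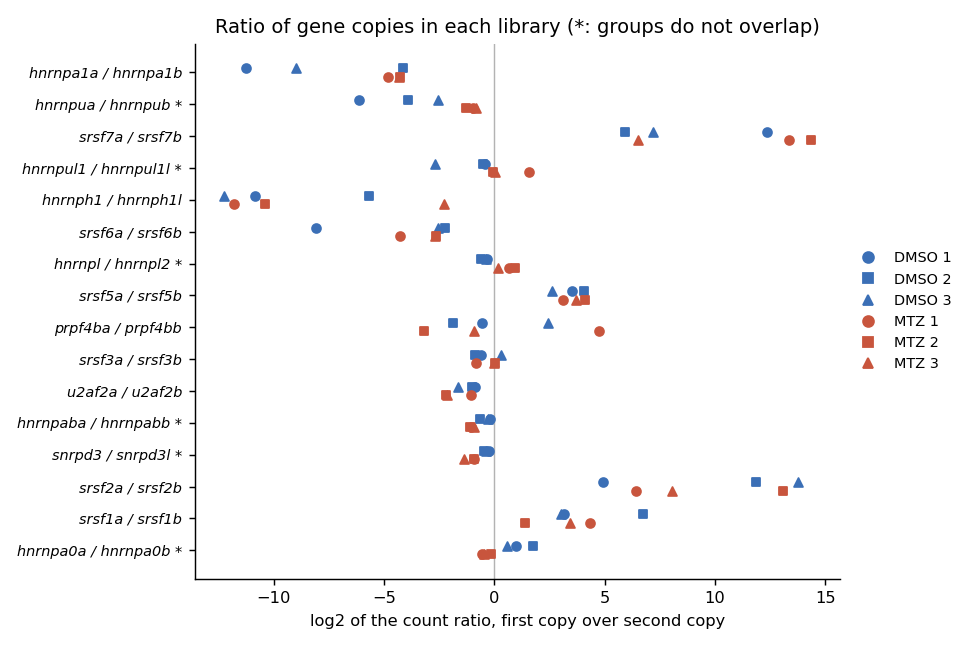
Log2 ratio of the counts of the first to the second gene of each of the 16 pairs, with 1 point for each library and 0.5 added to each count. Asterisks mark the 6 pairs whose groups do not overlap. In the hnrnpl and hnrnpa0a pairs the MTZ and DMSO points lie on opposite sides of 0.

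The libraries of a group resembled each other more in these genes than in most. The within-group SD of log2 CPM had a median of 0.54 over the 74 splicing genes and 2.01 over all genes tested. At a mean of 100 CPM or more the medians were 0.36 for 42 splicing genes and 0.48 for all 1858 genes. Below that level they were 1.07 for 32 splicing genes and 2.59 for all 8425 genes. Spread fell with level, and levels were not matched within either range. The part of level in these differences was not tested. The steadiest splicing genes were snrpd1, with an SD of 0.11, and srsf3b, with 0.12. The most variable were srsf2b, with 3.13, and prpf4bb, with 3.09, whose levels were 53.4, 73.7 and 17.3 CPM in DMSO and 0.371, 102 and 56.9 CPM in MTZ. For prpf4bb, MTZ 1 alone was near 0.

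**Figure D5:**
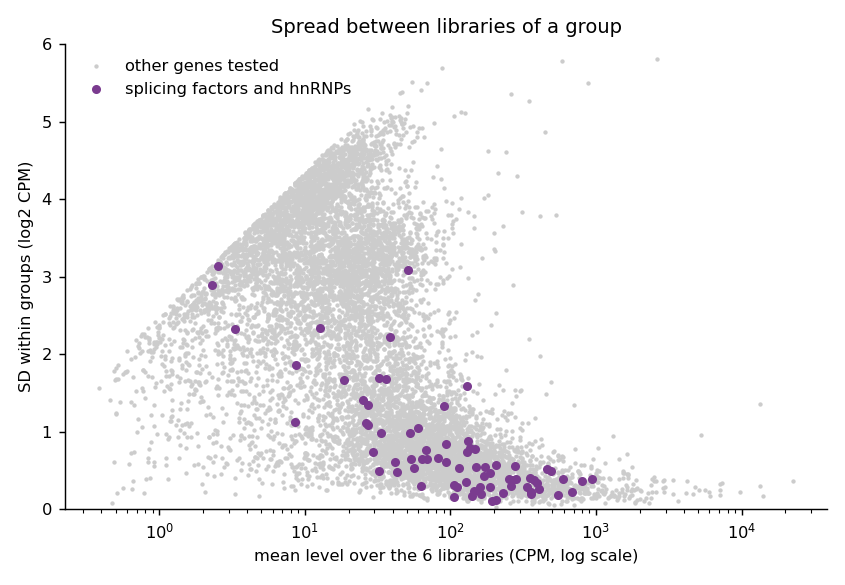
Within-group SD of log2 CPM against the mean CPM of the 6 libraries on a log axis, for the 74 splicing genes and the other genes tested. The spread falls with level in both, and the splicing genes lie toward the lower edge, with a median SD of 0.54 against 2.01 for all genes tested. At a mean of 100 CPM or more the medians were closer, at 0.36 for splicing genes and 0.48 for all genes.

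Other genes of the pathway, outside the symbols above, were counted in the same fit. Of 166 tested genes on 7 lists 102 had a lower mean in MTZ and 64 a higher one, and the median log2 fold change was -0.18. There were 11 that had the MTZ libraries below and 10 above all DMSO libraries, numbers near those that 5.17% and 5.58% of all genes tested give. edgeR called none of the 166, and 2 had an unadjusted p under 0.05, a smaller share than the 3.18% of all genes. DESeq2 called snw1 among them, and also srpk3, an SR kinase gene that the edgeR filter left out, where it called 3.82% of all genes. The levels of srpk3 were 15.1, 0.345 and 4.52 CPM in DMSO and 0.0530, 0.0608 and 0 CPM in MTZ, and the DESeq2 adjusted p was 0.0221. Both genes of small edgeR p belonged to the Prp19 complex and catalytic step factors, where 13 of 25 were higher. The gene snw1, for a factor that stays with the catalytic spliceosome, measured 88.4, 73.7 and 78.7 CPM in DMSO and 159.9, 189 and 172 CPM in MTZ. All MTZ libraries were above all DMSO libraries, with a log2 fold change of 1.11 ± 0.36, an unadjusted edgeR p of 0.0145 and an adjusted p of 0.9997, where DESeq2 gave an adjusted p of 0.000895. The gene bcas2, for a core member of the Prp19 complex, had a log2 fold change of 0.59 ± 0.23 and groups that did not overlap. Its unadjusted p from edgeR was 0.0347 and its adjusted p 0.9997.

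On the remaining lists edgeR gave no unadjusted p under 0.05. For LSm and U4/U6 proteins 12 of 16 genes were lower, and the smallest p values were those of ppih and usp39, both higher, at 0.69 and 1.46 on the log2 scale. Among U1, U5 and minor snRNP proteins 10 of 18 were lower, led by snrnp25 at 1.3 and ddx23 at -2.15. Of the branch site and U2 partners 10 of 15 were lower, with smndc1 at -0.66 and dhx15 at 0.42. For the exon junction complex and mRNA export the count was 12 lower of 22, with eif4a3 at -0.58 and thoc2 at 0.84. SR-related proteins and SR kinases had 14 of 23 lower, with rbm25b at -1.91 ± 0.94 and rsrc1 at 4.33 ± 2.84. The level of rsrc1 was low, at 0, 1.67 and 0 CPM in DMSO and 6.68, 10.3 and 17.1 CPM in MTZ. Other RNA-binding regulators had the lowest median, -0.38, with 32 of 47 lower, and were led by tia1l at 0.50 and fus at -4.77.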

How the data were processed

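Smart-seq2 libraries of 50 sorted cells, 3 for DMSO and 3 for MTZ, were grouped by their titles. The table that the authors deposited holds estimated counts for each gene, unscaled. Reads were placed on GRCz11 and HISAT2 was used, per the submitters' processing notes. Not given in the sources used here are the tool versions, how reads were counted, on which annotation and whether by strand. The counts were rounded to whole numbers, and 7 of the 78 splicing rows had decimals, among them snrpd3, hnrnpa0a and hnrnpd. The members, the gene lists and the rule for named genes were chosen with earlier results of these data known, and roles and gene pairs were written after member counts had been seen.

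All rows were fitted together with edgeR 4.0.16 (R 4.3.3; quasi-likelihood test, two-sided, TMM, filterByExpr with a minimum count of 10, group alone), and p-values were adjusted by Benjamini-Hochberg over the 10283 genes tested. The common biological coefficient of variation was 1.42. The standard error of a log2 fold change is its size divided by the square root of F. CPM used TMM-scaled totals, and 3 counts were 0.146 to 0.229 CPM. Intervals cover the counting of reads only and not that of molecules, since Smart-seq2 reads carry no identifiers of single molecules. Groups not overlapping means that every library of one group was above every library of the other.

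Named members were the 10 higher and 10 lower of smallest p, the 3 of highest mean CPM, 10 given by name and the 4 untested rows. This gave 30 tested members. Members of roles named beside them, and srsf3b and snrpf, were added after their values were seen. Alternatives were DESeq2 1.42.0, limma voom (limma 3.58.1), other scalings and filters, robust dispersion, a replicate block, and leaving out each library. Same-numbered DMSO and MTZ libraries did not deviate together (Pearson r across genes of -0.01, -0.00 and -0.05), so the numbers were not taken as pairs.

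Gene names came from the deposited table, and all 76 symbols were found in a RefSeq table of the GRCz12tu assembly, used for names and neighbours only. In it 19 of them overlap another coding gene. Reads of close copies and of overlapping genes may have been divided or merged. The values of 1 member are not reported here. No sequence is printed, and transcript length was not used here.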

Additional observations from a re-analysis of the deposited data

How the results depend on the processing

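Across the alternatives no splicing gene was called by edgeR or limma voom. DESeq2 called 386 genes, 198 higher and 188 lower in MTZ, and 1 splicing gene, hnrnph3. Without the low-count filter edgeR called 52 genes, 29 higher and 23 lower, and 0 splicing genes, with 3 of those at an unadjusted p under 0.05 against 4.41% of all genes. With the replicate number as a block edgeR called 0 genes, 30 splicing genes were higher and their median log2 fold change was -0.21. Leaving out 1 library at a time, the median ranged from -0.29 without MTZ 2 to -0.079 without DMSO 3. The filter was run again each time, so these medians covered 77 and 76 splicing genes. The genes with the MTZ libraries below ranged from 12 without DMSO 3 (16.2%, against 10.2% of all genes tested) to 19 without DMSO 1 (25.7% against 10.9%). Those with the MTZ libraries above ranged from 2 to 6, where 9.76% to 11.2% of all genes tested had that pattern. The pairs that did not overlap ranged from 6 to 7. Leaving out a library makes it easier for groups not to overlap, so the counts of such genes rose over all genes tested as well. The checks of genes and pairs that did not overlap, and RLE scaling and library totals for the genes below (10 and 11), were added after the data were seen. No share over all genes is given for those scalings or for the pairs. No fit with a block exists for the ratios of pairs, which are counts without a model. RLE scaling and library totals alone moved the median of all genes by -0.01 and -0.02.

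Of 417 values for the 30 named members under the alternatives, 395 had the same direction and no call, 0 were called, and 22, in 9 members, changed sign. With the block hnrnpa0l (ENSDARG00000036161) was 0.00225 and srsf2b 0.36, which limma voom put at 1.07, and with library totals alone snrpd1 was -0.00108. Without single libraries the range was -0.14 to 0.33 for hnrnpabb, -0.25 to 0.26 for hnrnpa0l, -0.20 to 0.0328 for srsf5a, -0.0476 to 0.0887 for snrpd1, -0.18 to 0.59 for prpf8, -0.13 to 0.31 for srsf2a, -2.04 to 5.94 for srsf2b, -0.42 to 4.68 for hnrnpa1a and -0.34 to 0.22 for hnrnpk. Other named members kept their sign when single libraries were left out but moved by over 1.5 times. The ranges were -1.65 to -0.86 for hnrnpub, -0.79 to -0.26 for hnrnpaba, -1.36 to -0.37 for hnrnph1l, -0.86 to -0.0306 for u2af1, 0.41 to 0.97 for u2af2b, 0.25 to 0.63 for hnrnpl, 0.34 to 1.06 for sf3a3, 0.62 to 1.61 for hnrnpul1, 0.11 to 0.45 for snrpb, 0.87 to 1.75 for hnrnpua, 0.0421 to 0.48 for sf3b6, 0.25 to 0.97 for sf3a1, 0.16 to 0.44 for prpf4 and 0.0798 to 1.16 for prpf6. The cause was not tested. A filter of 10 CPM in 3 libraries left 69 splicing genes, with a median of -0.12 and 28 higher. A level of 3 counts was 0.146 to 0.229 CPM, and below 100 CPM the median SD within groups was 1.07 for the splicing genes, the cause of which was not tested.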
